A study of Nothobranchius furzeri with 16 samples.

Results

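The proteins of the cytosolic ribosome were followed gene by gene in the brain of young and old killifish. Members were the gene symbols of the ribosome footprint table that name a protein of the small (RPS) or large (RPL) cytosolic subunit, with numbered copies such as RPL5(1of2) counted apart and the RPS6K kinases left out. This gave 63 members of 28494 symbols, 24 of the small and 39 of the large subunit. The rule used names only and no measured value, although it was set with earlier results of these data known. Symbols that matched no footprint row, such as RPSA, RPLP0, RPS9, RPS13, RPS20, RPS23, RPS28, RPL9, RPL23A, RPL31, RPL32, RPL34, RPL36A and RPL39, were not analysed here as footprints.

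Whole brains of male Nothobranchius furzeri (African turquoise killifish, a short-lived annual fish) of strain MZM-04/10p were profiled at 6 weeks (young) and 26 weeks (old). The labels name no treatment or transgene for either group. Ribosome footprinting, which sequences the RNA fragments that ribosomes protect from nuclease, was performed on 4 libraries per age, with no removal of rRNA. RNA sequencing was performed on 4 other libraries per age, whose totals lay between 9461792 and 13771769 counts. Whether every library stems from its own fish is not stated in the labels, and a p-value here refers to library-to-library spread, part of which may be technical. In a whole brain, fewer cells of a type and less RNA per cell cannot be told apart.

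A ribosome is built from both subunits, each of folded ribosomal RNA dressed with proteins, most of which are needed in equal numbers. The small subunit holds the mRNA and decodes it, between its head and its body, while the platform shapes the exit of the mRNA. The large subunit joins amino acids at the peptidyl transferase centre and releases the chain through an exit tunnel, and its mobile stalks recruit translation factors and guide tRNAs out. In vertebrates the mRNAs of these proteins start with a terminal oligopyrimidine (TOP) tract, through which mTOR signalling sets their translation together with that of several translation factors.

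Footprint values were deposited as FPKM, and their steps allowed the reads behind them to be recovered for 6407 of the 6472 genes above 0. The recovered reads were few. They amounted to 2153, 998, 872 and 323 reads in the young libraries and 4126, 3107, 3576 and 1868 in the old ones, so that the young libraries held 25.5% of them. The most abundant symbol took between 67.9% and 95.6% of the TPM (the FPKM values rescaled to a common sum) and lay outside the recovered genes. The worth of 1 read in FPKM differed between libraries and was 30.2 times higher in young replicate 4 than in old replicate 4. Markers of the tissue were detected, with 15 of 23 neuron marker symbols and 9 of 11 glia and myelin symbols above 0.

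Ribosomal protein genes were present at low read numbers throughout the footprint libraries. Of the 63 members, 56 were above 0 in at least 1 library, and none was above 0 in all 8. RPS15A, RPS21, RPS27(2of2), RPLP2, RPL5(2of2), RPL10(1of2) and RPL22(2of2) were listed at 0 in every library. Over the 56 members the median was 5 reads in all 8 libraries together, the highest value was 17 reads (RPS12), and 17 members had 10 or more. For 50 members the values were whole multiples of a common step, taken as 1 read, in every library with a value. The step was the largest that fitted, so read numbers are lowest estimates and true ones can be a multiple of them. For RPS14, RPS24, RPL15(2of2) and RPL28, seen in 1 library each, the value was taken as 1 read. RPL8 and RPL24 were whole in most libraries but not in all, and their fractional reads are given as such. The number of members above 0 in a library was 26, 19, 14 and 7 in the young and 44, 29, 44 and 14 in the old libraries, lowest in the library with the fewest recovered reads.

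**Figure D1:**
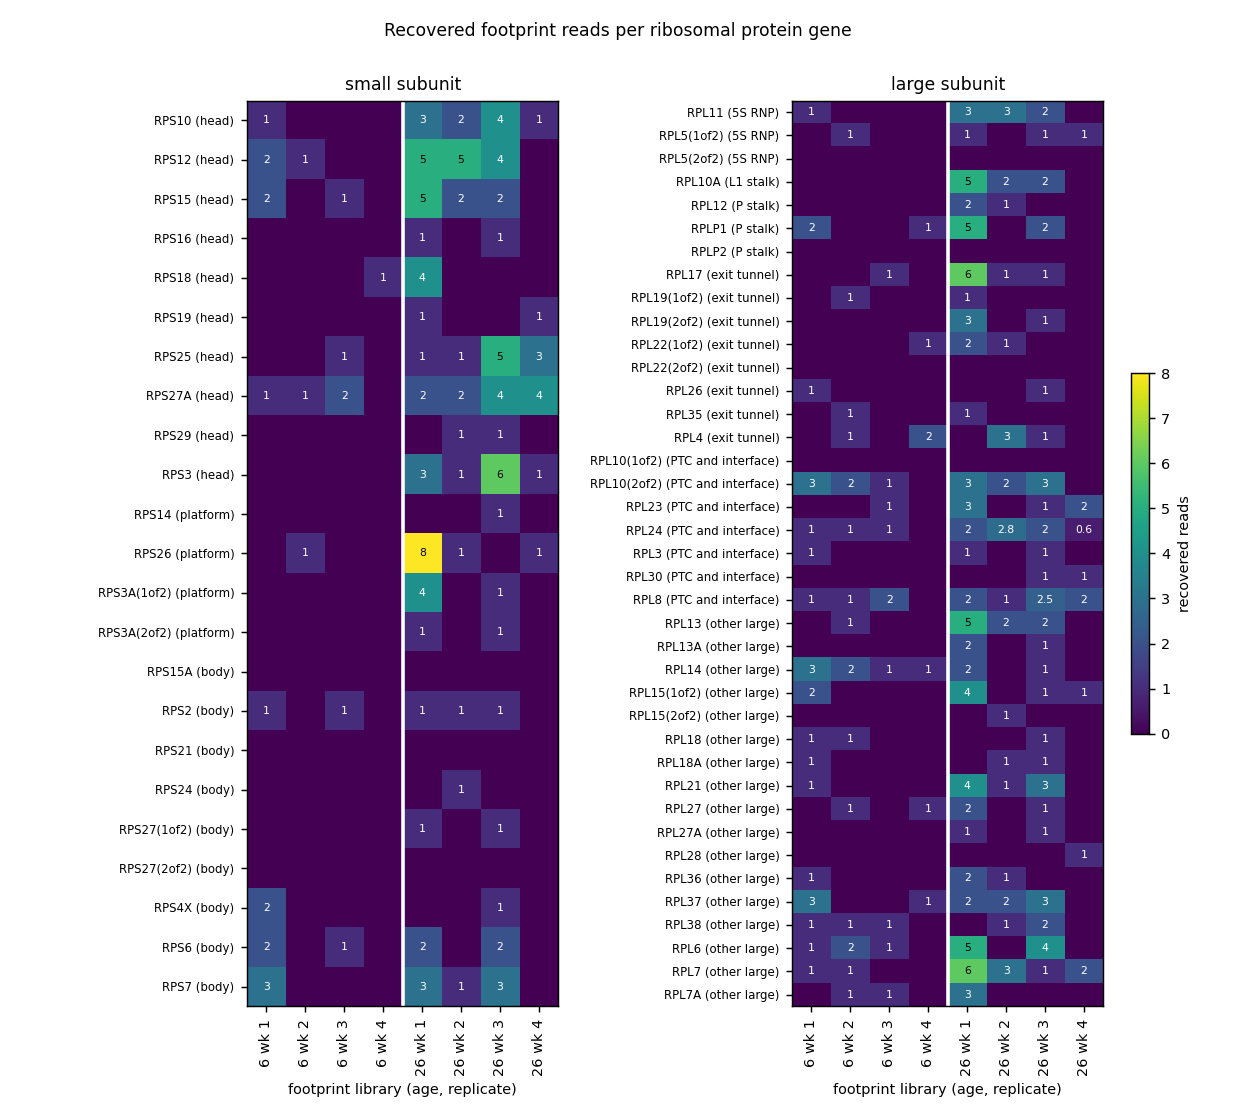
Recovered footprint reads of 62 of the 63 ribosomal protein genes (rows, with its place in the subunit) in each of the 8 libraries (columns, 6 weeks to the left of the white line and 26 weeks to the right), small subunit on the left and large subunit on the right. Colour and printed number both give the reads, and empty cells are 0. The highest cell holds 8 reads (RPS26, old replicate 1), and 17 genes have reads in old libraries only.

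All 63 members together took 2.00% of the recovered reads in young libraries (87 of 4353 reads, 95% Clopper-Pearson interval 1.6% to 2.46%) and 2.19% in old libraries (277.91 of 12691.9, 1.94% to 2.46%). These totals include the reads estimated for RPL8 and RPL24, and intervals cover counting error only and take recovered reads as true counts. The small subunit had 27 young and 117 old reads, and the large subunit had 60 and 160.91. In single libraries the small subunit share was 0.696%, 0.5%, 0.686% and 0.310% in young and 1.11%, 0.643%, 1.12% and 0.588% in old libraries. Old replicates 1 and 3 were above every young library, while old replicates 2 and 4 were within the young range. The large subunit share was 1.16%, 1.8%, 1.14% and 2.17% in young and 1.89%, 0.927%, 1.21% and 0.568% in old libraries, with ages overlapping. Shares of the summed members were described and not tested.

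Within the small subunit the reads were spread unevenly over its parts. Each protein was given 1 place from textbook structures, so the borders are approximate. The 10 genes of the head had 13 young and 76 old reads, or 0.299% (0.159% to 0.510%) and 0.599% (0.472% to 0.749%) of recovered reads. By library the head took 0.278%, 0.200%, 0.457% and 0.310% in young and 0.605%, 0.450%, 0.754% and 0.535% in old libraries. Here only old replicate 2 reached into the young range, just under young replicate 3. The 4 genes of the platform had 1 young and 18 old reads, or 0.0230% (0.000582% to 0.128%) and 0.142% (0.0841% to 0.224%), and 13 of the old reads were in old replicate 1. The 10 genes of the body had 13 and 23 reads, or 0.299% (0.159% to 0.510%) and 0.181% (0.115% to 0.272%), and 9 of the young reads were in young replicate 1. By library the body took 0.418%, 0.2%, 0.229% and 0% in young and 0.194%, 0.161%, 0.279% and 0% in old libraries, so that the ages overlapped. Thus the share of the body was lower and that of the head and the platform higher in the pooled old reads, and for each of these places the young and old intervals overlapped.

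The young and old intervals also overlapped for every place of the large subunit. The peptidyl transferase centre and interface had 15 young and 32.91 old reads over 7 genes, or 0.345% and 0.259%. The exit tunnel had 8 and 22 reads over 8 genes, or 0.184% and 0.173%. The 5S RNP had 2 and 11 reads, the P stalk 3 and 10, and the L1 stalk, here RPL10A alone, 0 and 9. The other 17 genes had 32 and 76 reads, or 0.735% and 0.599%.

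**Figure D2:**
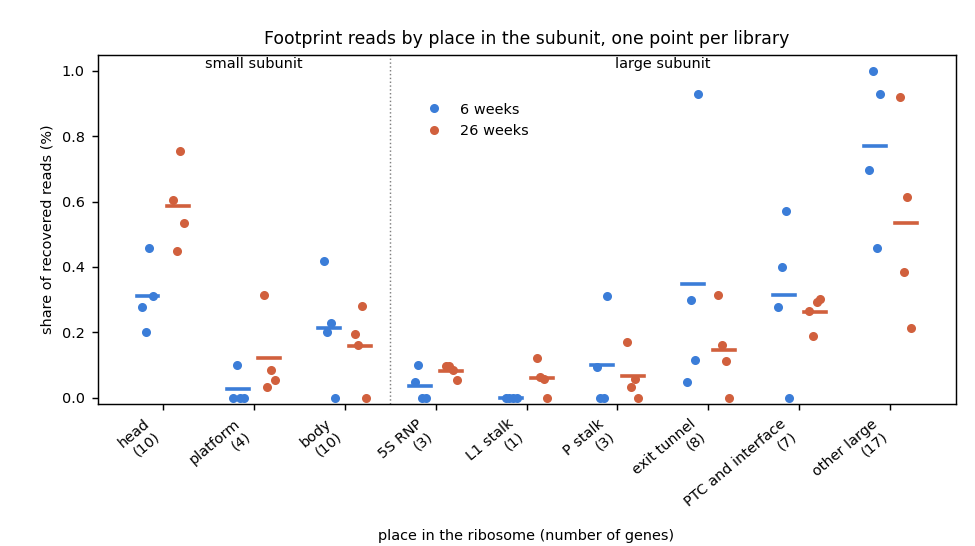
Share of recovered reads in percent (vertical axis) by place in the ribosome (horizontal axis, with the number of genes), 1 point per footprint library and a bar at the mean of the 4 libraries of an age. In the head of the small subunit the old libraries lie between 0.450% and 0.754% and the young ones between 0.200% and 0.457%, so that the ages overlap there as they do at the other places.

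The head of the small subunit, which clamps over the mRNA, held the 5 small subunit members with the largest log2 differences between ages in the limma comparison below. These were RPS3, RPS25, RPS29, RPS10 and RPS16. RPS3, RPS29 and RPS16 had no young reads and passed the filter only through old libraries, so that their direction was fixed. The order also follows the TPM worth of single reads. From 2 old reads and no young read each, RPS29 had 3.54, RPS27(1of2) 2.57 and RPS19 2.24. RPS3, which lines the mRNA entry channel and also acts in DNA repair outside the ribosome, had 0 reads in each young library and 3, 1, 6 and 1 reads in the old ones. It was the member whose libraries did not overlap between ages with old higher, a pattern that 1% of the 5200 genes tested showed. Only a gene above 0 in all 4 old libraries could show this pattern, and old replicate 4 had 1379 genes above 0. The share of RPS3 was 0% of young reads, with an exact interval up to 0.0847% (0.0689% by the limit of 3 reads), and 0.0867% (0.0433% to 0.155%) of old reads, so that the intervals overlapped. RPS25, needed by many viral internal ribosome entry sites, had 0, 0, 1 and 0 young and 1, 1, 5 and 3 old reads. Old replicates 3 and 4 carried most of them, and the ages overlapped. RPS12 had 2, 1, 0 and 0 young and 5, 5, 4 and 0 old reads. RPS10, at the mRNA entry side and a target of ubiquitination when ribosomes collide, had 1, 0, 0 and 0 young and 3, 2, 4 and 1 old reads. RPS15, next to the decoding centre, had 2, 0, 1 and 0 young and 5, 2, 2 and 0 old reads.

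RPS27A is made as a fusion with ubiquitin that is cleaved after translation. Its reads were 1, 1, 2 and 0 in young and 2, 2, 4 and 4 in old libraries, which gave nearly equal shares of 0.0919% and 0.0945% of recovered reads. It was above 0 in 7 libraries, as were RPL8 and RPL24, more than any other member. RPS16, RPS19 and RPS29 had 0 young and 2 old reads each, and RPS18 had 1 young and 4 old reads, all 4 in old replicate 1.

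On the platform, RPS26, which contacts the mRNA upstream of the start codon, had 0, 1, 0 and 0 young and 8, 1, 0 and 1 old reads. Old replicate 1 alone set its old level. RPS3A was listed as 2 copies, of which RPS3A(1of2) had 4, 0, 1 and 0 and RPS3A(2of2) 1, 0, 1 and 0 old reads, with none in young libraries. In the body, RPS7 had 3, 0, 0 and 0 young and 3, 1, 3 and 0 old reads. RPS6, the substrate of the S6 kinases downstream of mTOR, had 2, 0, 1 and 0 young and 2, 0, 2 and 0 old reads. The reads of both body members had the same highest value at both ages, although the old libraries were deeper. RPS27(1of2) had 1, 0, 1 and 0 old reads and none in young libraries.

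Among the stalks and the 5S RNP of the large subunit, RPL10A, the protein of the L1 stalk at the tRNA exit, had 0 reads in each young library and 5, 2, 2 and 0 in the old ones. Old replicate 4 was at 0 too, so the ages overlapped. RPLP1 of the acidic P stalk, which recruits elongation factors, had 2, 0, 0 and 1 young and 5, 0, 2 and 0 old reads. Its partner RPLP2 had none in any library, and RPL12 at the stalk base had 2, 1, 0 and 0 old reads and none in young libraries. RPL11, which with RPL5 and 5S rRNA also binds the p53 regulator MDM2 in mammals, had 1, 0, 0 and 0 young and 3, 3, 2 and 0 old reads. RPL5(1of2) had 0, 1, 0 and 0 young and 1, 0, 1 and 1 old reads.

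At the peptidyl transferase centre and the subunit interface, RPL10(2of2), which helps the joining of the subunits, had 3, 2, 1 and 0 young and 3, 2, 3 and 0 old reads. RPL8, close to the catalytic RNA, had 1, 1, 2 and 0 young and 2, 1, 2.46 and 2 old reads. RPL24, a bridge to the small subunit, had 1, 1, 1 and 0 young and 2, 2.83, 2 and 0.62 old reads. None of these separated the ages. At the exit tunnel, RPL17 had 0, 0, 1 and 0 young and 6, 1, 1 and 0 old reads, most of them in old replicate 1. RPL19(1of2) had 1 young and 1 old read and RPL19(2of2) 0 and 4. RPL22(1of2) had 1 young read, in replicate 4, and 2, 1, 0 and 0 old reads. That single young read gave RPL22(1of2) the highest mean TPM of all members (170), ahead of RPLP1 (157) and RPL27 (155), which also drew on reads of young replicate 4. The highest mean TPM values therefore rest on the worth of single reads in that library.

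RPL14 went the other way. This protein of the solvent side had 3, 2, 1 and 1 reads in young and 2, 0, 1 and 0 reads in old libraries, and was the only member above 0 in all 4 young libraries. Its TPM was 39.6, 71.1, 34.7 and 269 in young and 21.4, 0, 15.6 and 0 in old libraries. Young TPM was above old TPM throughout, a pattern that 0.0385% of the genes tested showed, while the reads themselves overlapped. Only a gene above 0 in all 4 young libraries could show this pattern, and young replicate 4 had 262 genes above 0. Most genes tested could therefore not show it. The share of RPL14 was 0.161% (0.0647% to 0.331%) of young and 0.0236% (0.00487% to 0.0691%) of old recovered reads, so that the intervals overlapped.

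Several other large subunit proteins had more reads in the old libraries, which were also deeper. RPL7 had 1, 1, 0 and 0 young and 6, 3, 1 and 2 old reads, and RPL6 had 1, 2, 1 and 0 young and 5, 0, 4 and 0 old reads. RPL13 had 0, 1, 0 and 0 young and 5, 2, 2 and 0 old reads. RPL21 had 1, 0, 0 and 0 young and 4, 1, 3 and 0 old reads. All 4 of these overlapped between ages, through an old library at 0 or at the level of young ones. RPL15(1of2) had 2, 0, 0 and 0 young and 4, 0, 1 and 1 old reads, RPL15(2of2) 1 old read, and RPL37 3, 0, 0 and 1 young and 2, 2, 3 and 0 old reads. RPL27 had 0, 1, 0 and 1 young and 2, 0, 1 and 0 old reads, and RPL13A had 2, 0, 1 and 0 old reads with none in young libraries. As a share of pooled recovered reads, RPL7, RPL13 and RPL21 were higher in old libraries, while RPL6, RPL37 and RPL27 were lower. The share of RPL15(1of2) was nearly equal, at 0.0459% in young and 0.0473% in old libraries. RPL13A and RPL15(2of2) had no young reads. The members not described singly had 1 to 7 reads in all libraries together.

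Footprints were then compared between ages gene by gene with limma on log2(TPM + 1), over the 5200 genes whose mean reached 1 TPM. Of the members 55 passed this filter, 21 of the small and 34 of the large subunit. None was called at a Benjamini-Hochberg adjusted p under 0.05, and neither was any other gene (0%). At an unadjusted p under 0.05 limma gave 5 members higher in old (RPS3, RPS29, RPL10A, RPS25 and RPS16) and none lower, against 77 higher and 9 lower among all genes. RPS3, RPS29, RPL10A and RPS16 were at 0 in all young libraries and passed the filter only through the old ones, so that their direction was fixed. The 5 members became 1 without young replicate 4 or old replicate 3, 2 without old replicate 1, 3 without young replicate 2 or young replicate 3, and 17 without old replicate 4, with 1 member lower without young replicate 3 or old replicate 1. Among all genes, dropping old replicate 4 raised the number of higher ones from 77 to 255 of 5413. The rise to 17 members thus came with a rise over the whole table. Dropping any other single library lowered the number of higher genes, to between 36 and 54. Of the members, RPS3 had the largest difference, at 4.90 ± 1.82 (log2, SE, limma adjusted p = 0.510). RPS25 followed at 4.24 ± 2.07 and RPL10A had 3.47 ± 1.65, with the same adjusted p. At the other end RPL14 had -4.05 ± 2.10 (limma adjusted p = 0.510). RPS29 and RPS16 had 3.54 ± 1.66 and 3.34 ± 1.63 from 2 old reads each.

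The median over all genes tested was itself 0.95, and that of the members has to be read against it. The small subunit had a median of 2.24 with 18 of 21 members above 0 and 16 of 21 above the median of all genes. The large subunit had 0.99 with 23 of 34 above 0 and 17 of 34 above the median of all genes. By place, the head had a median of 2.79, the platform 2.62 and the body 0.86. In the large subunit RPL10A of the L1 stalk had 3.47, and the median was 1.96 for the 5S RNP, 0.91 for the P stalk, 0.73 for the peptidyl transferase centre and interface, 0.06 for the exit tunnel and 1.39 for the other genes. These medians carry no test, and a difference between places was not tested. Of the 55 members tested, 16 were at 0 in all young libraries (29.1%), as were 54.9% of all genes tested. Of the members with reads, 9 of 21 in the small and 8 of 35 in the large subunit had none in young libraries. By place these were 4 of 10 in the head, 3 of 4 on the platform and 2 of 7 in the body. Such members could pass the filter only through old libraries, so their direction was fixed, and the medians depend on their number. With edgeR on the recovered reads of the 245 genes with at least 10 reads, 15 members were tested and none was called. Of these members RPS3 alone had an unadjusted p under 0.05 (log2 fold change 4.12 ± 1.54 SE, edgeR adjusted p = 0.150). Among all 245 genes, 22 were higher and 5 lower at that threshold. RPS3 had no young reads and passed this filter too only through old libraries, so that its direction was fixed.

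**Figure D3:**
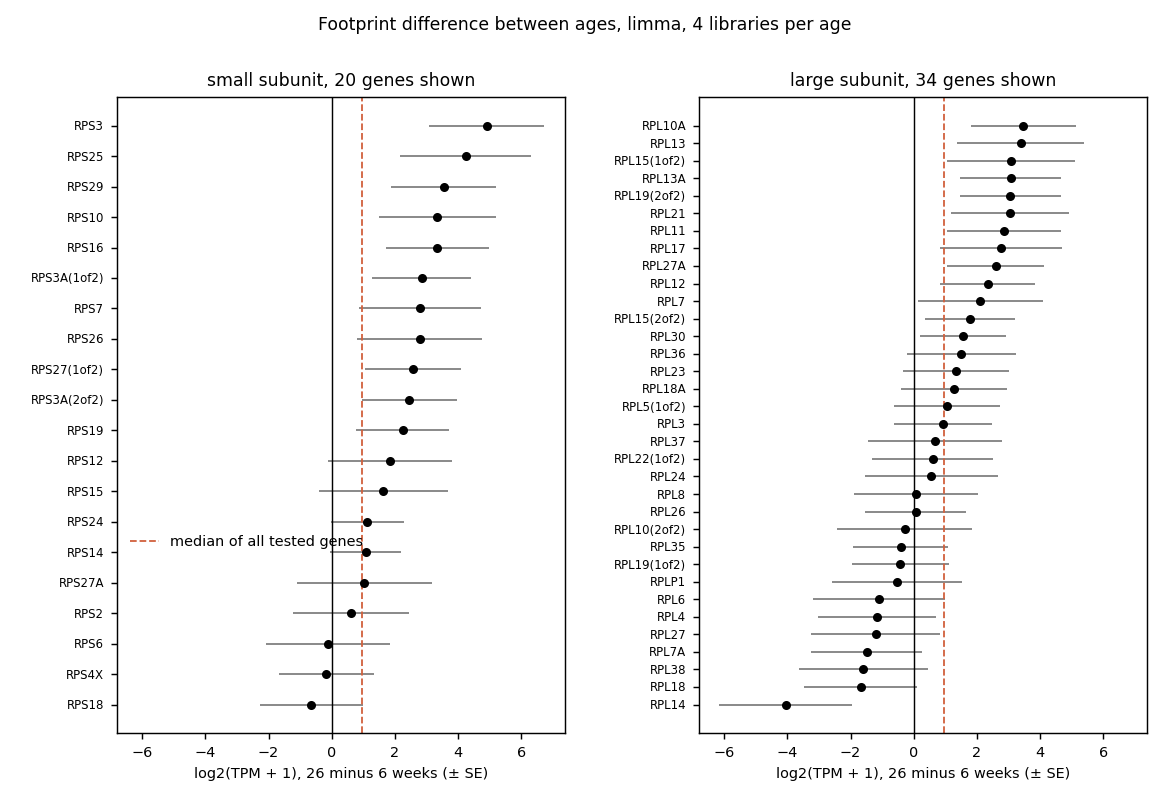
Difference in log2(TPM + 1) between 26 and 6 weeks (horizontal axis, points) with its standard error (lines) for 54 of the 55 tested ribosomal protein genes, small subunit on the left and large subunit on the right. The dashed line marks the median of all 5200 genes at 0.95. RPS3 is highest at 4.90 and RPL14 lowest at -4.05, and no gene passed the adjusted threshold.

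Other TOP genes, mainly elongation and initiation factors, gave a comparison outside the ribosome. Of their 21 symbols 19 were above 0, with 44 young and 92 old reads, or 1.01% and 0.725% of recovered reads. Of the 18 tested none was called, 10 were above 0 and the median was 0.34, below that of all genes. Markers of cell types overlapped between ages. Neuron markers took 1.14% to 2.00% of recovered reads in young and 0.922% to 1.74% in old libraries. Glia and myelin markers took 0.742% to 1.37% and 0.775% to 1.35%, and erythrocyte genes 0% to 0.571% and 0.335% to 0.771%. Skeletal muscle genes, with 6 of 18 symbols above 0, took at most 0.229%. The part of cell composition in the members' values was not tested.

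RNA sequencing showed the same genes at high counts. The study's annotation paired 62 gene identifiers with 59 ribosomal protein symbols, 27 identifiers of the small and 35 of the large subunit. Identifiers came from lists that are incomplete and ordered by significance in other fish, so that which members have one depends on those lists. Together the 62 genes took 6.64%, 10.9%, 9.88% and 10.2% of the counts in young and 8.55%, 12.8%, 12.8% and 13.8% in old libraries. Replicate 1 was the lowest library of each age, and without it the ages did not overlap. RNA levels are given as CPM, which are counts scaled to library sums corrected by the TMM normalization factors of edgeR. CPM therefore differ from plain shares of the counts in a library. Pearson's correlation of log2 CPM across genes was 0.978 between the replicate 1 libraries. The correlation was 0.872 to 0.921 between them and the remaining libraries, and 0.946 to 0.993 within the latter. Results are therefore given with all libraries and with replicates 2 to 4. Small and large subunit stayed close, with a ratio of their counts between 0.889 and 0.944 in the 8 libraries.

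**Figure D4:**
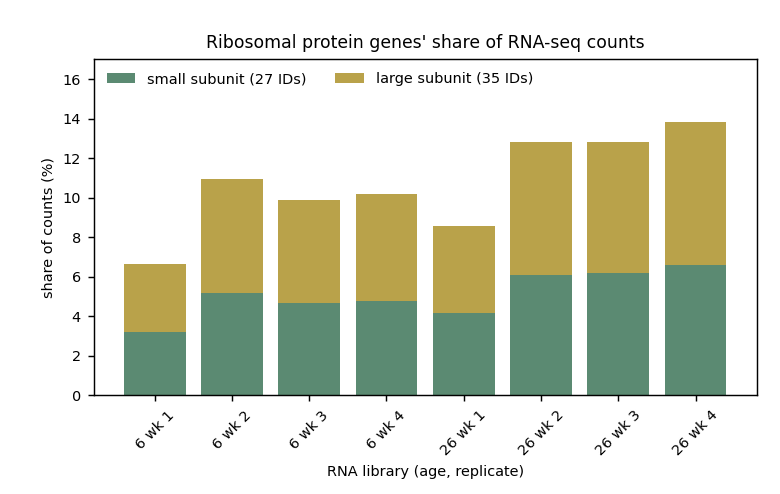
Share of all RNA counts in percent (vertical axis) taken by the ribosomal protein genes of the small and large subunit (stacked bars) in each of the 8 RNA libraries (horizontal axis). Replicate 1 is lowest at both ages, at 6.64% and 8.55%, and the old replicates 2 to 4 lie between 12.8% and 13.8%, above the young ones at 9.88% to 10.9%.

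With all 8 libraries, edgeR called none of the 62 members, against 0.167% of all genes called as higher in old. Of the members 18 had an unadjusted edgeR p under 0.05, all higher in old, against 1243 genes higher and 1274 lower of 16759. DESeq2 called 5 members as higher, against 346 of 22196 genes. The 18 became 1 without old replicate 4 and 2 when old replicate 3 or either of young replicates 3 and 4 was left out. They became 7 without old replicate 2, 11 without young replicate 1 and 44 without old replicate 1. Over all genes the count of higher ones then lay between 692 (without young replicate 4) and 2854 (without young replicate 1), with 1417 without old replicate 1. The log2 fold change was above 0 for 61 of 62 members, with a median of 0.55 in the small and 0.54 in the large subunit against 0.04 over all genes. RPS25 had the lowest p, at 0.90 ± 0.26 (log2 fold change, SE, edgeR adjusted p = 0.188), followed by RPL17 (0.67), RPS24 (0.82) and RPL26 (0.62), with adjusted p between 0.240 and 0.247. In 6 members all old libraries were above all young ones, namely RPS25, RPS3, RPL17, RPL26, RPLP0 and RPL10A, as in 5.11% of all genes.

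With replicates 2 to 4, edgeR called 53 of the 62 members as higher in old and none as lower, against 16.0% of all genes higher and 15.9% lower. These were 24 of 27 in the small and 29 of 35 in the large subunit. The median was 0.50 and 0.48, against -0.005 over all genes. The call count was 34 without young replicate 4 and 38 to 54 without any other of the 6 libraries. In 57 members all old libraries were above all young ones, as in 28.1% of all genes. In the replicate 1 pair, which allows no test alone, 59 of 62 members were higher in the old library (median 0.38), against 50.7% of all genes. The exceptions were RPS9, RPS27A and one copy of RPL5.

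RPS25 led this comparison as well. It had 1804, 2688, 2011 and 2175 CPM in young and 2941, 3911, 4893 and 4406 CPM in old libraries, with the highest young library below the lowest old one. In replicates 2 to 4 it rose 1.8-fold (log2 0.85 ± 0.11 SE, edgeR adjusted p = 0.00130). RPS24, a protein mutated in Diamond-Blackfan anaemia in humans, had 1065, 1946, 1523 and 1611 CPM in young and 1825, 2803, 3325 and 2894 CPM in old libraries. It overlapped between ages only through old replicate 1 and rose 1.66-fold in replicates 2 to 4 (edgeR adjusted p = 0.00137). RPL32 and RPL12, next in fold change, rose 1.66-fold and 1.64-fold in replicates 2 to 4 (edgeR adjusted p = 0.00154 and 0.00193). With all 8 libraries both overlapped between ages (edgeR adjusted p = 0.275 and 0.251). RPL17 had 1747, 2345, 1936 and 1901 CPM in young and 2631, 2979, 3590 and 3402 CPM in old libraries, a 1.51-fold rise in replicates 2 to 4. RPL26, at the exit tunnel, had 1197, 1589, 1342 and 1391 CPM in young and 1824, 2018, 2445 and 2214 CPM in old libraries and rose 1.44-fold.

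Calls in replicates 2 to 4 came from every part of the ribosome. The 3 stalk-base and stalk genes RPLP0, RPL12 and RPLP2, the 7 exit tunnel genes and the 4 platform genes were all called higher. The head had 10 of 11 identifiers called and the body 10 of 12. The peptidyl transferase centre and interface had 3 of 6, where RPL10, RPL3 and RPL8 had log2 fold changes of 0.08, 0.21 and 0.27 (edgeR adjusted p = 0.620, 0.128 and 0.116). Among the other members without a call were RPS27A (0.02), RPS9 (0.09), RPL7 (0.18), RPL27 (-0.10) and one copy of RPL5 (-0.23). The difference between places was not tested.

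**Figure D5:**
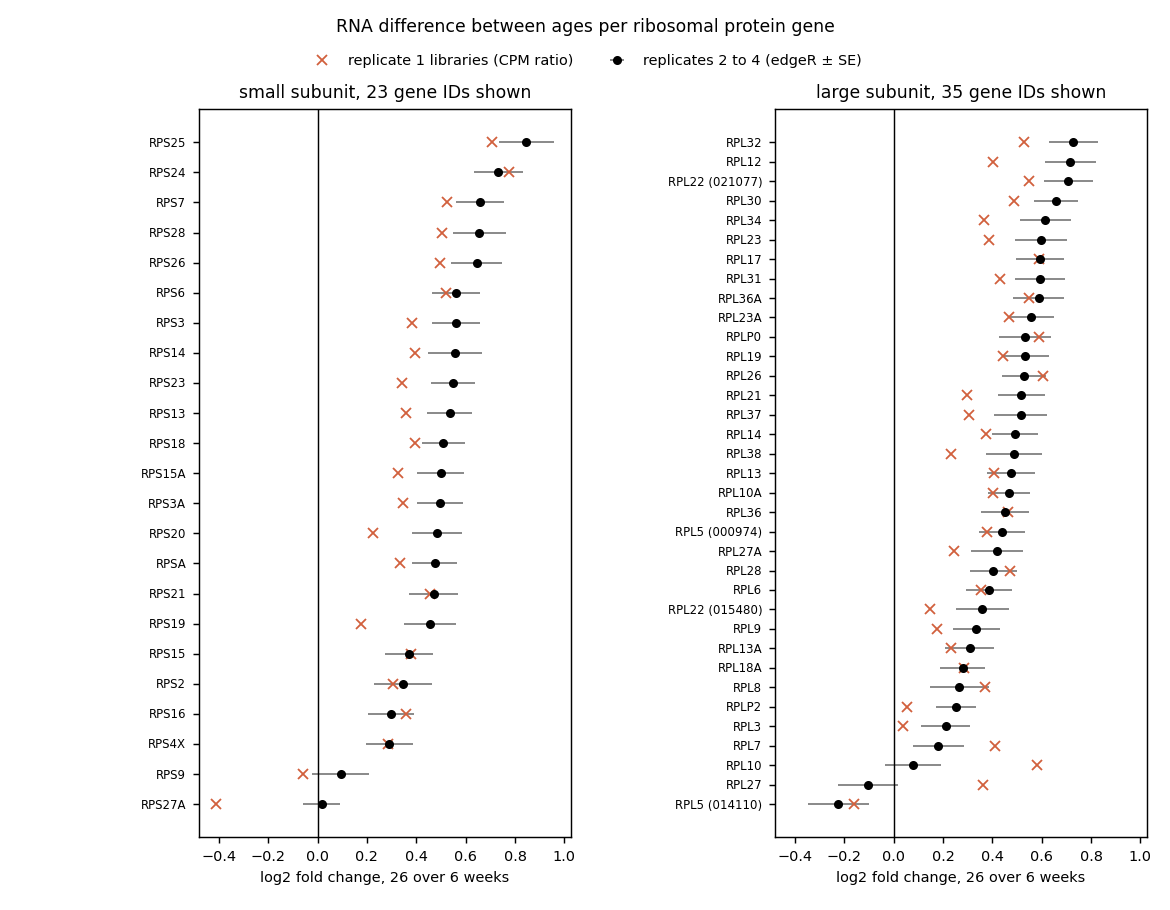
Log2 fold change of RNA between 26 and 6 weeks (horizontal axis) for 58 of the 62 ribosomal protein gene identifiers, as the edgeR estimate with standard error from replicates 2 to 4 (black points and lines) and as the CPM ratio of the replicate 1 libraries (crosses). Members lie between -0.23 (one RPL5 copy) and 0.85 (RPS25), and 53 of the 62 were called higher in replicates 2 to 4.

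Some symbols had more than 1 identifier, and a difference between such copies was not tested. RPL5 had identifier Nfu_g_1_000974 at 1963, 3385, 2877 and 2944 CPM in young and 2553, 4183, 4508 and 4652 CPM in old libraries (log2 fold change 0.44, edgeR adjusted p = 0.00808 in replicates 2 to 4). The other, Nfu_g_1_014110, had 221, 81.2, 67.2 and 66.4 CPM in young and 198, 51.9, 78.6 and 66.8 CPM in old libraries. It was the member whose log2 fold change from the fit of all 8 libraries was negative (-0.14, edgeR adjusted p = 0.943), while its ages overlapped. Replicate 1 was its highest library at both ages, unlike the other members. Its gene model was 8777 bases long, against 1832 for Nfu_g_1_000974, and whether it is a true copy of RPL5 was not tested. In replicates 2 to 4 RPL22 rose under both identifiers, by 0.71 (Nfu_g_1_021077) and 0.36 (Nfu_g_1_015480) on the log2 scale. Whether reads were shared between copies when they were counted is not given in the sources used here, so values of copies are uncertain.

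Per gene length, RPS25 had the highest RNA level, at 8343 CPM per kilobase. The lowest were Nfu_g_1_014110 (11.8 CPM per kilobase) and RPS27A (23.4), both with long gene models of 8777 and 6866 bases. Footprint levels did not order the members in this way. Across 39 members with 1 row in each table, Spearman's correlation of RNA level per kilobase and mean footprint TPM was 0.09, given as a description since the members share libraries and most footprint values rest on a few reads. For the 35 of these members tested in footprints, Spearman's correlation of the log2 differences in footprints and in RNA (replicates 2 to 4) was 0.30, with the same limits. As a single member, RPL14 had -4.05 in footprints and 0.49 in RNA (log2, edgeR adjusted p = 0.00520 in replicates 2 to 4), values from different libraries whose difference was not tested.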

How the data were processed

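Brain libraries were grouped by the age in their labels. For old RNA libraries this label (26 weeks) was followed although their titles show a 22. For footprints the authors deposited FPKM per gene symbol, made with STAR and RSEM 1.3.1 on the NotFur1 genome. FPKM values were rescaled to TPM, and reads were recovered from the FPKM values as whole multiples, to a tolerance of 0.02 reads that grew as the square root of their number. Of the whole numbers that gave a gene's values, the lowest were taken. For RNA the authors deposited counts per gene (STAR 2.4.1d, featureCounts 1.4.6-p4). The deposited RPKM values were scaled by library totals that were recycled down the genes, and served only to derive gene lengths. For these RNA libraries the genome build and strand setting are not given in the sources used here. The study's methods state them (unstranded counting) for RNA libraries of other ages that were aligned with Tophat2, and they were not carried over.

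Footprints, as log2(TPM + 1), were tested with limma 3.58.1 (moderated by empirical Bayes, trend on), and RNA with edgeR 4.0.16 (TMM, filterByExpr, quasi-likelihood), with Benjamini-Hochberg adjustment over all genes tested and a threshold of 0.05. A fold change on the log2(TPM + 1) scale misstates the ratio of genes with few reads. Alternatives were DESeq2 1.42.0, other pseudocounts, filters and normalizations, and leaving out each library. Recovery and both tests were checked on simulated data. For the limma check the simulated footprints were far deeper than the real ones and equal in depth across libraries. The simulated RNA had no libraries set apart from the others. These checks therefore do not show how the tests behave at the depth of these footprints or with such RNA libraries. No 2 libraries held identical values. A count of 0 is given with the share that 3 reads of the pooled total would make. Shares rest on recovered reads, 323 to 4126 per library. Described singly were members with at least 8 reads or above 0 in at least 6 libraries, those whose ages did not overlap in TPM, the 4 lowest p and the 3 highest mean TPM per subunit, copies, and RPLP1, RPLP2, RPS6, RPS3, RPS27A, RPL10A, RPL5 and RPL11. For RNA these were the 4 lowest p in each direction, the highest and lowest levels per length and identifiers that share a symbol. Values of a few single members are not reported here, and these members remain in the counts and medians. Members and lists were chosen with earlier results of these data known.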

Additional observations from a re-analysis of the deposited data

Results flagged for a closer look

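Among 122 sets of 4 libraries (the CPM of each of 58 RNA identifiers, the summed RNA share and both footprint shares, per age), 8 had a library far from the other 3 by Dixon's criterion, all of them single RNA members. Chance alone gives about 1 in 20 such sets. Single footprint members were not examined in this way, since their values are steps of a few reads.

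In 7 of the 8 the library was replicate 1. In young libraries replicate 1 was low for RPL8 (255 CPM) and high for the RPL5 copy Nfu_g_1_014110 (221 CPM). In old libraries replicate 1 was low for RPL22 (Nfu_g_1_021077, 325 CPM), RPL23A (1154 CPM), RPL14 (757 CPM), RPL36 (688 CPM) and RPS27A (89.3 CPM). For RPS3 it was young replicate 2, at 1953 CPM. What sets the replicate 1 libraries apart was not tested.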

How the results depend on the processing

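Footprints gave no called member under any alternative run. Over all genes edgeR on recovered reads called 1 of 245, not a member, and every other footprint alternative called none. The footprint median of the small subunit was 4.51 without the 20 most abundant genes, where that of all genes was 1.94, and 0.96 with a pseudocount of 10, where that of all genes was 0.29. Leaving out 1 library gave 1.46 (without old replicate 1) to 3.15 (without old replicate 4) for the small and 0.44 (without old replicate 3) to 1.54 (without old replicate 4) for the large subunit. As differences of library means, shares of recovered reads, old minus young, were 0.318 percentage points for the small (0.234 to 0.410 without 1 library) and -0.418 for the large subunit (-0.665 without old replicate 1 to -0.218 without young replicate 4). Pooled over reads, the large subunit took 1.38% and 1.27%. As shares of TPM without the 20 most abundant genes, the old minus young differences were 0.847 percentage points for the small and -1.04 for the large subunit.

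RNA calls depended on replicate 1. Against 57 genes and 0 members with all 8 libraries, DESeq2 called 748 genes and 5 members, replicates 2 to 4 gave 5298 and 53, a term for replicate 1 gave 4192 and 51, and no filter gave 37 genes. Leaving out 1 library gave 0 to 638 genes and 0 members. Added after seeing the data, upper quartile normalization in replicates 2 to 4 gave 5152 genes and 45 members, with 2112 higher and 3040 lower, against 2656 and 2642 under TMM. Leaving out young replicate 2, 3 or 4 from these gave 4835, 2558 and 2106 genes and 52, 38 and 34 members, and leaving out old replicate 2, 3 or 4 gave 4850, 5078 and 3884 genes and 46, 54 and 43 members. Upper quartile normalization of all 8 libraries moved the median of all genes from 0.04 to -0.07. Same-numbered RNA libraries correlated at 0.82, 0.52, 0.07 and 0.60 in their deviations and footprint libraries at -0.003 to 0.03, and not every library correlated best with its own number, so the numbers were not taken as pairs. A replicate block gave 2658 genes and 38 members for RNA and no call for footprints. The medians of both subunits stayed above 0 under all RNA alternatives. Depth limits the footprints, where 29 of the 56 detected members rest on 5 reads or fewer.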
